A study of Mus musculus with 6 samples.

Results

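Muscle fibres carry their own versions of many enzymes that other tissues make from sister genes, and 10 genes of this kind were followed in B16 melanomas: the creatine kinases Ckm and Ckmt2, the glycolytic and glycogen enzymes Eno3, Pgam2 and Pygm, the cytochrome oxidase subunits Cox6a2, Cox8b and Cox7a1, the oxygen store Mb and the purine enzyme Ampd1. They were chosen with earlier results of these data known and found by symbol in the platform annotation. All 10 were measured well enough to test, among 10523 genes tested in all. To be tested, a probe had to be detected, with its p-value against background below 0.05, on 3 or more arrays out of 6, and all 13 probes of the 10 genes were. B16 is a transplantable melanoma line of C57BL/6 mice, and the tumors were grown in mice of that strain from 400000 inoculated cells. All tumors were taken on day 8 and trimmed of adjoining normal tissue. The 3 large tumors measured 70 to 80 mm2 and the 3 small ones 10 to 20 mm2. Line, host strain and day were the same in both groups, and 100 ng of total RNA per tumor was amplified in 2 rounds and hybridised to 1 bead array. The labels number the tumors 1 to 3 within a group and do not say how many mice or inoculation days they stand for, so every p-value speaks only of the spread among these tumors, part of which may be technical.

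As background, a contracting fibre spends ATP faster than mitochondria can replace it. Creatine kinases refill it from creatine phosphate, glycogen breakdown and glycolysis refill it without oxygen, AMP deaminase clears the AMP that builds up, and myoglobin with cytochrome oxidase serves the slower oxidative supply. The muscle isoforms are switched on as fibres mature, while most other cells use brain, liver or widely expressed isoforms of the same enzymes. Several of them, Eno3, Mb and the cytochrome oxidase isoforms included, are also used by the heart, and some, Cox8b and Cox7a1 included, also by brown fat.

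All 10 muscle isoforms were lower on average in the large than in the small tumors, and 4 of them fell by the test: Ckm, Pgam2, Cox6a2 and Cox8b. Their log2 fold changes (large minus small) were -2.39, -2.05, -1.55 and -1.49, which are 5.26-fold, 4.14-fold, 2.92-fold and 2.80-fold. The remaining 6 did not pass, with adjusted p-values of 0.0573 to 0.156. Calls are limma's, at a Benjamini-Hochberg adjusted p below 0.05 over the whole table of 10523 genes. On that rule 1.68% of all genes were called lower and 0.789% higher, and 0 of the 10 members were called higher. An unadjusted p under 0.05 with a lower level in large tumors was found for 10 of the 10, against 10.2% of all genes (22.5% in either direction), and a negative log2 fold change for 10 of the 10, against 50.1%. The mean was at least 2-fold lower in 7 of the 10, against 2.58%. The median log2 fold change of the 10 was -1.53, against -0.00096 over all genes tested. In 9 of the 10 every large tumor lay below every small tumor on the normalised scale, as in 13.6% of all genes. Because the 10 were chosen with earlier results of these data known, the shares of all genes set beside theirs are no test. In bulk tumor RNA, fewer cells of a type and less RNA per cell cannot be told apart. The 4 calls depended on single arrays. With large replicate 1, large replicate 3 or small replicate 3 left out, none held (0 calls with limma, while 9, 9 and 10 members had an unadjusted p under 0.05), 2 held without large replicate 2 (Ckm and Pgam2), 1 without small replicate 1 (Ckm), and 5 members were called without small replicate 2.

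**Figure D1:**
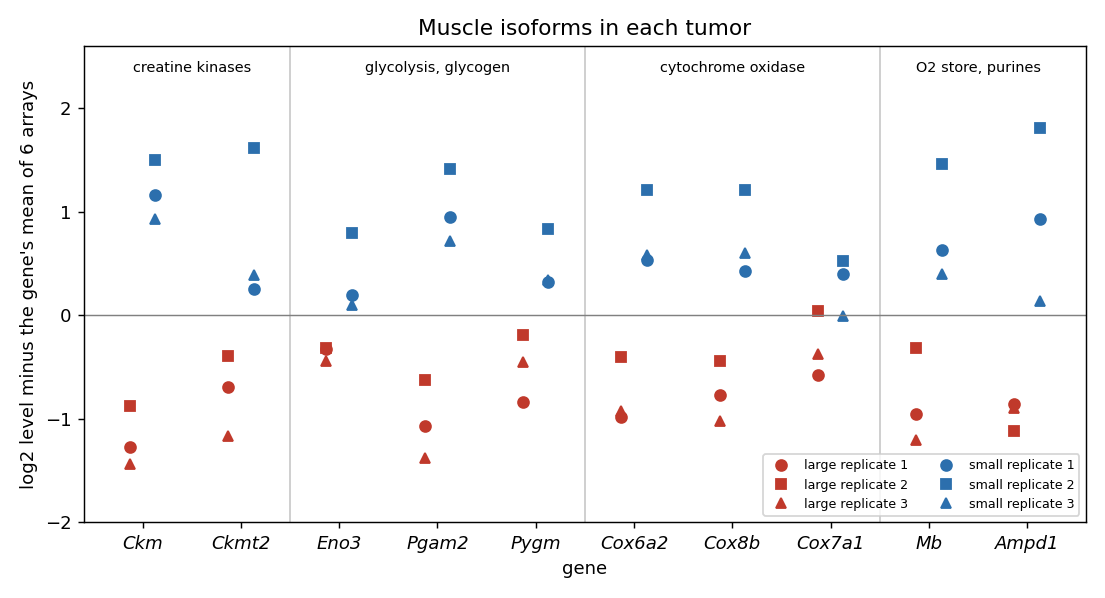
Log2 level of each of the 10 genes on each of the 6 arrays, minus that gene's mean over the 6 arrays, ordered by role; red marks are large tumors, blue marks small tumors, and the marker shape gives the replicate. Groups are apart in 9 genes and overlap in Cox7a1, and small replicate 2 is the highest small tumor in all 10.

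Arrays of large tumors had median signals of 117 to 128 and arrays of small tumors 104 to 115, and small replicate 1 was the dimmest (95th percentile of signal 949 against 1477 to 1997 on the others). In the deposited signals, before normalisation, 3 of the 10 members (Ckm, Pgam2 and Ampd1) were lower in every large than in every small tumor, against 1.09% of all genes. For the other 6 genes the separation appeared with normalisation. Quantile normalisation without background correction also put 9 of the 10 lower in every large than in every small tumor. Small replicate 2 had the highest level among small tumors in 10 of 10 members, and large replicate 2 the highest among large tumors in 9 of 10, the exception being Ampd1.

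The 250 bases before and 50 after the transcript start were at hand in RefSeq's annotation of build GRCm38.p6 for 8 of the 10 genes, Cox6a2 and Ampd1 not among them. These windows are shown for called members of each role with a window and, beside them, for Cox7a1, the member that did not separate the groups. They are read 5′ to 3′ in the gene's direction, with CAGCTG, a form of the E-box bound by myogenic factors, in capitals. The Ckm window is chr7:19410844-19411143 (plus strand), that of Pgam2 chr11:5803747-5804046 (minus strand), that of Cox8b chr7:140900397-140900696 (minus strand) and that of Cox7a1 chr7:30183921-30184220 (plus strand).
Ckm: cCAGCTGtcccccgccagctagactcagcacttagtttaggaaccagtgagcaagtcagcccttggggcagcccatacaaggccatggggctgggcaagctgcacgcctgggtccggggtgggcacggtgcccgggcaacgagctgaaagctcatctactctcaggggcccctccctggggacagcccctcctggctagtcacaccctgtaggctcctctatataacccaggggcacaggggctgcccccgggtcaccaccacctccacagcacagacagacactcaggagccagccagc
Pgam2: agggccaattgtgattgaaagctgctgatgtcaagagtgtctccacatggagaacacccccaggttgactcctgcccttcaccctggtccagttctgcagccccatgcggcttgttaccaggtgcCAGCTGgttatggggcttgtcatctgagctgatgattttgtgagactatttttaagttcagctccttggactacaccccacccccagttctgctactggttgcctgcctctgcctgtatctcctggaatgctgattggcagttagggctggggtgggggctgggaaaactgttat
Cox8b: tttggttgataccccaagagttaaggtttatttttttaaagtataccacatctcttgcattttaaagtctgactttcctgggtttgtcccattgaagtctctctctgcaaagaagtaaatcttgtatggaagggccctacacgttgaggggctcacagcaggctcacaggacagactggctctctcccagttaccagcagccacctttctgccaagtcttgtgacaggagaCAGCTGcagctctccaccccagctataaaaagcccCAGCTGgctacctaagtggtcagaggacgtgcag
Cox7a1: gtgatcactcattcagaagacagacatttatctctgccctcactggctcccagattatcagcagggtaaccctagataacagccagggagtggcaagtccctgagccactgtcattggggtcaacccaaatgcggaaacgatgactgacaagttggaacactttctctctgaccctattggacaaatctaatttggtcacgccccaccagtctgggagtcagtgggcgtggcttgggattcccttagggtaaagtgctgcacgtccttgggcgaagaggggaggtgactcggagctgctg
CAGCTG, which reads the same on both strands, was in the window of 7 of the 8 genes, namely Ckm, Ckmt2, Eno3, Pgam2, Pygm, Cox8b and Mb (in 2 of the 3 overlapping or alternative starts of Mb). It was in 16.3% of all 32851 windows of that length and in 1 of 12 genes for the other isoforms of these enzymes. A gene was counted if any of its windows held the motif, while the share over all is of single windows. Of 4 further motifs searched on both strands, CANNTG, which contains CAGCTG, was in all 8 and in 72.3% of all windows, TATAAA in 1 (Cox8b) and 13.6%, the MEF2 consensus in 0 and 0.557%, and TCAAGGTCA, an oestrogen-related receptor motif, in 0 and 0.423%. Among the 12 genes for other isoforms, CANNTG was in 7, TATAAA in 3, the MEF2 consensus in 1 and TCAAGGTCA in 0. The motifs were picked with the members known, and a match or its lack describes the letters of these windows only.

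The creatine kinases were lower in large tumors, and Ckm fell the most of the 10. Ckm (probe ILMN_2608804), the cytosolic creatine kinase of muscle, had log2 levels of 8.22, 8.62 and 8.06 in large replicates 1 to 3 and 10.66, 11.00 and 10.43 in small replicates 1 to 3. Every large tumor lay far below every small one. Ckm fell by 2.39 ± 0.20 (SE, n = 3 per group; limma, adjusted p = 0.0161), and ranked the fourth smallest p-value of all genes. Ckmt2, the mitochondrial creatine kinase of sarcomeric muscle, which makes creatine phosphate from mitochondrial ATP, had levels of 5.59, 5.89 and 5.11 in the large tumors and 6.54, 7.90 and 6.67 in the small tumors. Its groups did not overlap, but small replicate 2 stood well above the other small tumors, and the log2 fold change of -1.50 ± 0.39 did not pass (limma, adjusted p = 0.0913). It was -0.71 without background correction. A second detected Ckmt2 probe gave -1.55.

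The creatine kinases of other tissues gave no call (limma). Ckb, the brain form made by many cell types, was bright on all arrays (log2 level 13.98, 14.19 and 14.08 in the large tumors and 14.00, 13.95 and 13.97 in the small tumors) and had a log2 fold change of 0.11 ± 0.10 (limma, adjusted p = 0.562). Ckm minus Ckb on the same array had a large-minus-small difference of -2.51 log2 units, with no overlap between groups. Its exact permutation p of 0.1 (two-sided) is the smallest that 3 against 3 can give, and was 0.14 after adjustment over 7 isoform pairs. Ckmt1, the ubiquitous mitochondrial form, ranged from 4.37 to 8.80 in the large tumors and from 4.69 to 7.89 in the small tumors, a spread wider than the difference between the groups (log2 fold change -0.40 ± 1.28).

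Among the glycolytic and glycogen enzymes, Pgam2 fell and Eno3 and Pygm did not pass. Pgam2 (ILMN_2588815), the muscle subunit of phosphoglycerate mutase, a late step of glycolysis, had log2 levels of 7.35, 7.79 and 7.04 in the large tumors and 9.37, 9.83 and 9.13 in the small tumors. The groups were far apart, and it fell by 2.05 ± 0.25 (limma, adjusted p = 0.0274). Pygm, the glycogen phosphorylase of muscle, had levels of 5.17, 5.83 and 5.56 in the large tumors and 6.34, 6.85 and 6.35 in the small tumors, close to background, and its log2 fold change was -0.99 ± 0.21 (limma, adjusted p = 0.065), or -0.41 without background correction. Eno3, the beta subunit of enolase, had levels of 9.44, 9.45 and 9.33 in the large tumors and 9.96, 10.56 and 9.87 in the small tumors. Its groups were narrowly apart, with a log2 fold change of -0.72 ± 0.19 (limma, adjusted p = 0.0981).

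The sizes of change were also compared within the array, as the large-minus-small difference of a pair. It was -1.33 log2 units for Pgam2 minus Eno3 and -1.06 for Pgam2 minus Pygm, with no overlap in either (exact permutation p = 0.1 each, adjusted 0.16 over 8 pairs of members), and -0.27 for Pygm minus Eno3, with overlapping groups (exact permutation p = 0.2). For Ckm minus Ckmt2 it was -0.89, without overlap (exact permutation p = 0.1, adjusted 0.16). These 8 pairs, each within 1 role, were chosen after seeing the data.

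None of the isoforms of these enzymes from other tissues was called (limma, 0 of 4, with 0 of 4 at an unadjusted p under 0.05). Pgam1, the widely expressed phosphoglycerate mutase, had a log2 fold change of 0.11 ± 0.17, Pygb, the brain phosphorylase, 0.10 ± 0.12, Pygl, the liver phosphorylase, -0.32 ± 0.17, and Eno2, the neuronal enolase, 0.22 ± 0.26 (limma, adjusted p = 0.732, 0.676, 0.316 and 0.658). The large-minus-small difference was -2.17 log2 units for Pgam2 minus Pgam1 and -1.09 for Pygm minus Pygb, both without overlap (exact permutation p = 0.1, adjusted 0.14). Eno1, the enolase of most tissues, had no single-gene probe in the annotation used here, so Eno3 could not be set against it.

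Of the muscle subunits of cytochrome oxidase, the last complex of the respiratory chain, Cox6a2 and Cox8b fell and Cox7a1 did not pass. Cox6a2 (ILMN_2629581), the heart and muscle form of subunit 6a, had log2 levels of 8.49, 9.07 and 8.55 in the large tumors and 10.01, 10.69 and 10.06 in the small tumors. Cox8b (ILMN_2727520), the heart and muscle form of subunit 8, had levels of 7.09, 7.42 and 6.84 in the large tumors and 8.28, 9.08 and 8.46 in the small tumors. In each, all large tumors were below all small ones, with log2 fold changes of -1.55 ± 0.24 and -1.49 ± 0.24 (limma, adjusted p = 0.0374 and 0.0399). Cox7a1 (ILMN_1240857), the heart and muscle form of subunit 7a, had levels of 7.66, 8.28 and 7.86 in the large tumors and 8.63, 8.76 and 8.23 in the small tumors. Large replicate 2 lay above small replicate 3, and the log2 fold change was -0.61 ± 0.21 (limma, adjusted p = 0.156), the smallest of the 10.

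Within the array, Cox6a2 minus Cox8b had a large-minus-small difference of -0.06 log2 units with overlapping groups (exact permutation p = 0.8). Against Cox7a1 the difference was -0.94 for Cox6a2 and -0.88 for Cox8b, without overlap (exact permutation p = 0.1 each, adjusted 0.16 over the 8 pairs). Of the ubiquitous sister subunits, Cox6a1 had levels of 13.52, 13.66 and 13.68 in the large tumors and 13.01, 13.24 and 13.19 in the small tumors, so every large tumor was above every small one, with a log2 fold change of 0.48 ± 0.11 that did not pass (limma, adjusted p = 0.0808). A second Cox6a1 probe gave 0.60. Cox6a2 minus Cox6a1 had a large-minus-small difference of -2.02 log2 units, without overlap (exact permutation p = 0.1, adjusted 0.14). Cox7a2 was at -0.02 ± 0.11, and the large-minus-small difference of Cox7a1 minus Cox7a2 was -0.59 with overlapping groups (exact permutation p = 0.2, adjusted 0.233). Ckmt2 minus Ckmt1, the 1 other pair that overlapped, was at -1.10 (exact permutation p = 0.6). Cox8a had no single-gene probe in the annotation used here.

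Myoglobin and AMP deaminase 1 were lower in every large tumor but just missed the threshold. Mb (ILMN_2954987), which stores oxygen in oxidative fibres and the heart, had log2 levels of 7.92, 8.56 and 7.67 in the large tumors and 9.50, 10.34 and 9.28 in the small tumors, with a log2 fold change of -1.66 ± 0.33 (limma, adjusted p = 0.0573). A second Mb probe gave -1.37. Ampd1 (ILMN_1237871), the AMP deaminase of muscle, had levels of 6.00, 5.74 and 5.96 in the large tumors and 7.78, 8.67 and 7.0 in the small tumors. Large tumors were tightly grouped and small ones spread over more than a log2 unit, and the log2 fold change was -1.92 ± 0.39 (limma, adjusted p = 0.0574), or -1.09 without background correction. A second Ampd1 probe gave -2.12. Ampd2 and Ampd3, the liver and red cell forms, were at -0.08 ± 0.10 and 0.10 ± 0.19, and the large-minus-small difference of Ampd1 minus Ampd2 was -1.84 log2 units, without overlap (exact permutation p = 0.1, adjusted 0.14). Ampd1 minus Mb was at -0.26 with overlap (exact permutation p = 0.6). Ampd1 passed without small replicate 2 (limma, adjusted p = 0.0469), and Mb in 5 of 17 alternative settings.

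Over the 10 tested isoforms of other tissues, 0 were called in either direction (limma, against 2.47% of all genes), with Cox6a1 the 1 gene whose unadjusted p was under 0.05. It was also the 1 whose large tumors all lay above the small ones, as in 16.1% of all genes. The median log2 fold change was 0.10. They ranged from -0.40 to 0.48, and all 10 muscle isoforms lay below that range.

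**Figure D2:**
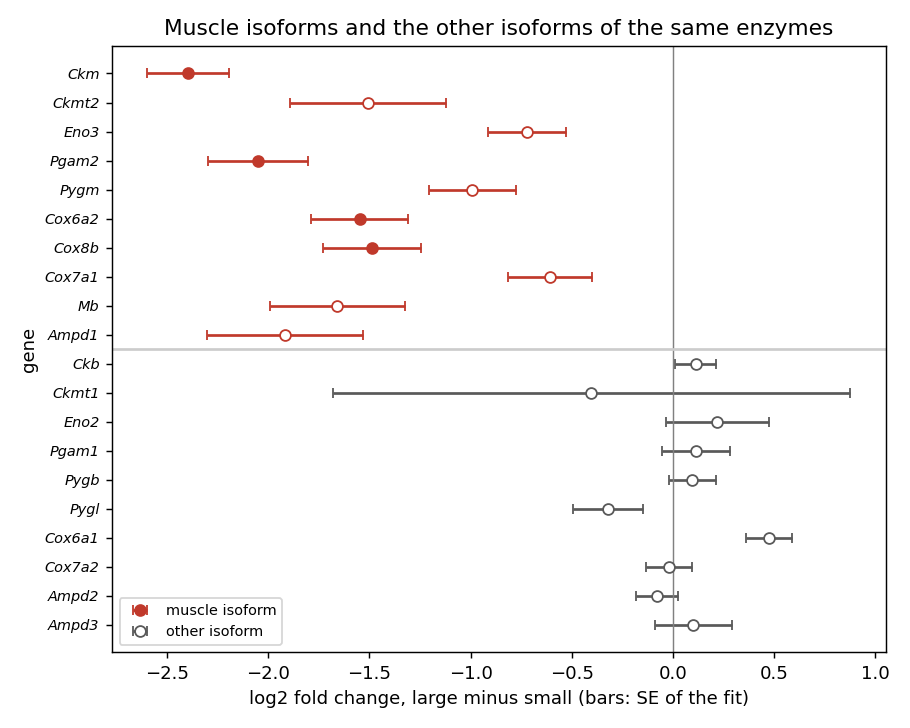
Log2 fold change (large minus small tumors) of the 10 muscle isoforms in red and the 10 tested other isoforms of the same enzymes in grey; bars are the SE of the limma fit with 3 tumors per group, and filled marks have an adjusted p under 0.05. The filled marks are Ckm, Pgam2, Cox6a2 and Cox8b, and the long bar of Ckmt1 is its spread within both groups.

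The muscle isoforms were set against the rest of the fibre. Markers of the skeletal muscle fibre were listed with earlier results of these data known. Of the 15 tested, 14 were called lower (limma, against 1.68% of all genes) and 15 were negative (against 50.1%), with a median log2 fold change of -1.83. Among them Acta1, skeletal muscle actin, had a log2 fold change of -1.15 ± 0.19, Mylpf, a fast myosin light chain, -1.57 ± 0.22 and Myl1, another, -1.43 ± 0.18 (limma, adjusted p = 0.0399, 0.0324 and 0.0292). Actn3, the actinin of fast fibres, was the 1 not called, at -1.23 ± 0.37 (adjusted p = 0.126). The summed level of the 15 markers, on the linear normalised scale, lay between 14815 and 20961 for large tumors and between 43895 and 62101 for small ones. Without large replicate 1 or large replicate 3 none of these markers was called by limma (0 calls, as over the whole table), 1 was without small replicate 3, 7 without large replicate 2 and 8 without small replicate 1. Their part in the values of the metabolic isoforms was not tested.

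Relative to the mean of these 15 markers on the same array, 6 of the 10 metabolic isoforms overlapped between groups and 4 did not. The marker mean itself had a large-minus-small difference of -1.77 log2 units, so any gene that fell less than it is shifted upward in large tumors here. The share of all genes that separate on this measure was not computed, so the count says nothing particular to these members. The large-minus-small difference of gene minus marker mean was 1.17 log2 units for Cox7a1, 1.05 for Eno3, 0.78 for Pygm and -0.62 for Ckm. Each of the 4 had an exact permutation p of 0.1, the smallest possible, and 0.25 after adjustment over the 10. Cox6a2, Cox8b, Ckmt2, Mb, Ampd1 and Pgam2 were at 0.23, 0.29, 0.27, 0.12, -0.14 and -0.28, with overlap. This comparison was chosen after seeing the data, and its p-values do not pass.

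**Figure D3:**
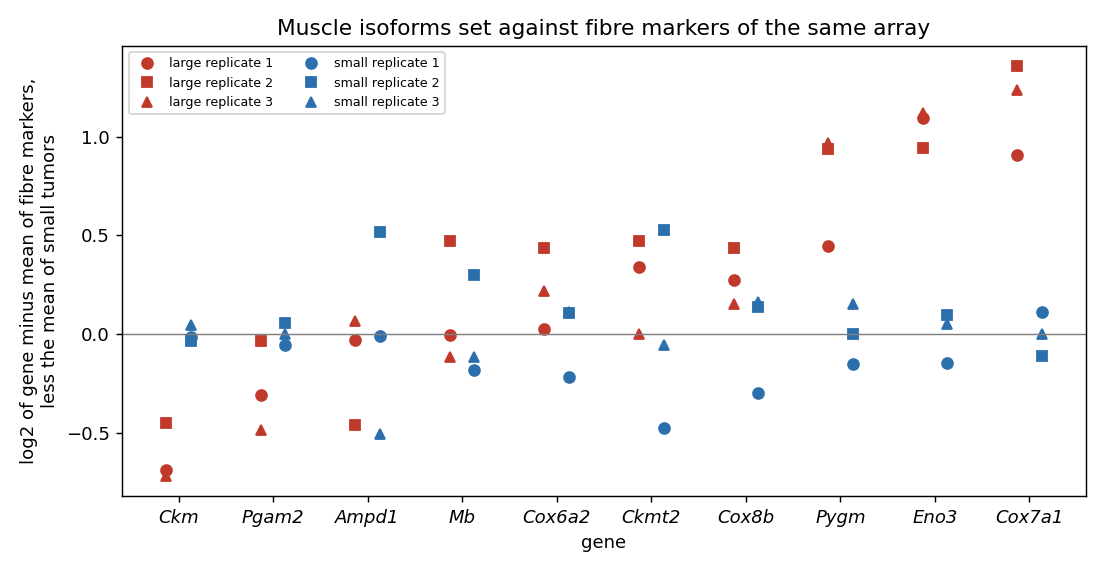
For each gene, the log2 level minus the mean of 15 fibre markers on the same array, less the mean of that difference in the small tumors; red marks are large and blue marks small tumors, ordered by the mean of large tumors. Ckm lies below the small tumors, Pygm, Eno3 and Cox7a1 above them, and the other 6 genes overlap.

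Markers of other cells that make some of these isoforms gave few values. Their counts are to be read against all genes, of which limma called 2.47% and put 22.5% at an unadjusted p under 0.05. Of the slow fibre markers, 3 of 8 were tested and 0 called. These were Tnnt1, slow troponin T, at -0.30 ± 0.13, Tnnc1, slow and cardiac troponin C, at -0.02 ± 0.23, and Atp2a2, a calcium pump also made outside muscle, at 1.01 ± 0.21 (limma, adjusted p = 0.227, 0.972 and 0.0611; 1 at an unadjusted p under 0.05). Of 8 heart markers 2 were tested, Nppb at 0.46 ± 0.24 and Myl4 at 0.70 ± 0.48, and neither was called (limma, 0 of 2 at an unadjusted p under 0.05). Of 7 brown fat markers Prdm16 alone was tested (0.05 ± 0.18), Cidea was not detected on the 3 arrays required, and the defining Ucp1 had no single-gene probe in the annotation used here. The fat markers Adipoq, Lep, Pparg and Lipe were at -0.85, -1.0, -0.73 and -0.33 with 0 of 4 called by limma and 2 of 4 below an unadjusted p of 0.05, and their summed level lay between 182 and 329.7 for large tumors and between 330.2 and 524 for small ones. Their part in the Cox8b and Cox7a1 values was not tested.

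Other muscle lists were also short. Counts in this paragraph are to be read against the same shares of all genes, 2.47% called and 22.5% at an unadjusted p under 0.05 (limma). Among 4 tested genes of muscle precursors, Myog, Myf6, Chrna1 and Myh8, limma called 0, with 1 below an unadjusted p of 0.05, with log2 fold changes of -0.66 to 0.38, and their levels lay near background. Among 6 smooth muscle markers limma called 0, with 3 below an unadjusted p of 0.05, namely Des, Smtn and Myocd. Myocd was detected on 0 large and 3 small arrays and so was tested through the small tumors alone, and its level was at least 1.19-fold higher there. Acta2 was at 0.00 ± 0.38, Myh11 at -0.02 ± 0.42, Tagln at -0.06 ± 0.24 and Smtn at -0.33 ± 0.11. The lowest of that list, Des, at -1.25 ± 0.25 (adjusted p = 0.0573), named after its value was seen, is desmin, which skeletal muscle also makes. Keratinocyte markers had summed levels between 700.4 and 57239 for large tumors and between 474 and 44502 for small ones, overlapping widely, with 0 of 8 called (limma, 0 at an unadjusted p under 0.05; Krt5, Krt14, Krt10 and Krt1 at -0.21, 1.22, -1.76 and -0.67). The pigment cell markers Tyr, Tyrp1, Dct and Pmel were detected on every array at levels of at least 8.78, with 0 of 9 markers called (limma, 2 at an unadjusted p under 0.05) and log2 fold changes of 0.88, 0.05, 0.05 and 0.09. All 9 were positive, as were 5252 of the 10523 genes, and in 3 every large tumor lay above every small one (16.1% of all genes). Their summed level lay between 113680 and 120270 for large tumors and between 103930 and 110240 for small ones, without overlap.

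The remaining genes of muscle energy metabolism, taken from lists of glycogen, glycolysis, phosphotransfer, fatty acid, cytochrome oxidase and regulator genes, gave 1 call. Of 43 tested, 1 was called lower and 0 higher, a share close to the 2.47% of all genes called in either direction, and their median log2 fold change was -0.11. The gene that fell was Ppp1r3c, a subunit that targets protein phosphatase to glycogen, with levels of 6.01, 5.93 and 5.37 in the large tumors and 7.42, 7.30 and 7.01 in the small tumors. Its fall of 1.47 ± 0.20 (limma, adjusted p = 0.0324) was not called without large replicate 1, 2 or 3 or without small replicate 1 or 3. The other glycogen genes with the smallest p-values were Gys1, a glycogen synthase, at 0.69 ± 0.27, Gbe1, the branching enzyme, at -0.40 ± 0.20, and Phkb, a phosphorylase kinase subunit, at 0.20 ± 0.13.

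In the other lists limma called no gene. Counts at an unadjusted p under 0.05 are to be read against the 22.5% of all genes that passed it in either direction. Of 9 genes of glycolysis and glucose uptake, 2 had an unadjusted p under 0.05 (limma), near that share. Gpd1, which links glycolysis to glycerol, was at -0.50 ± 0.12 (adjusted p = 0.0824), Fbp2, the muscle fructose bisphosphatase, at -0.89 ± 0.32, Slc2a4, the insulin-regulated glucose transporter, at 0.44 ± 0.23, and Pfkm, muscle phosphofructokinase, at -0.33 ± 0.20. Of 4 phosphotransfer and purine genes, 2 had an unadjusted p under 0.05. Ak1, an adenylate kinase, was at -0.29 ± 0.11, Adssl1, the muscle adenylosuccinate synthase that works with Ampd1, at -0.44 ± 0.17, Slc6a8, the creatine transporter, at 0.12 ± 0.10 and Gamt, which makes creatine, at 0.03 ± 0.12.

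Of 8 genes of fatty acid supply and oxidation, 3 had an unadjusted p under 0.05 (limma, against 22.5% of all genes). Lpl, lipoprotein lipase, was at -0.63 ± 0.17, Pdk4, a brake on pyruvate oxidation, at -0.99 ± 0.30, Cpt1b, the muscle gate for fatty acid entry into mitochondria, at -0.55 ± 0.23, and Acadvl at 0.21 ± 0.11. Of 8 further cytochrome oxidase subunits, 2 did, near the share of all genes. Cox6c was at -0.38 ± 0.10, Cox4i2, an isoform of subunit 4 best known in lung, at -0.50 ± 0.19, Cox6b1 at 0.24 ± 0.11 and Cox7b at -0.32 ± 0.15. Ranging from -0.50 to 0.24, all 8 lay above Cox6a2, Cox8b and Cox7a1. Cox4i2, detected on 1 large array, was above Cox7a1 (-0.61 ± 0.21) by less than the SE of either. Of 7 regulators, 2 did, also near that share. Mef2c and Mef2d, transcription factors of muscle genes, were at -0.36 ± 0.11 and 0.53 ± 0.17, Ppargc1b, a co-activator of mitochondrial genes, at -0.17 ± 0.11 and Myog, the myogenic factor myogenin, at -0.52 ± 0.34. Mef2d was detected on 3 large arrays and 1 small array, so it was tested mainly through the large tumors, where it was higher.

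**Figure D4:**
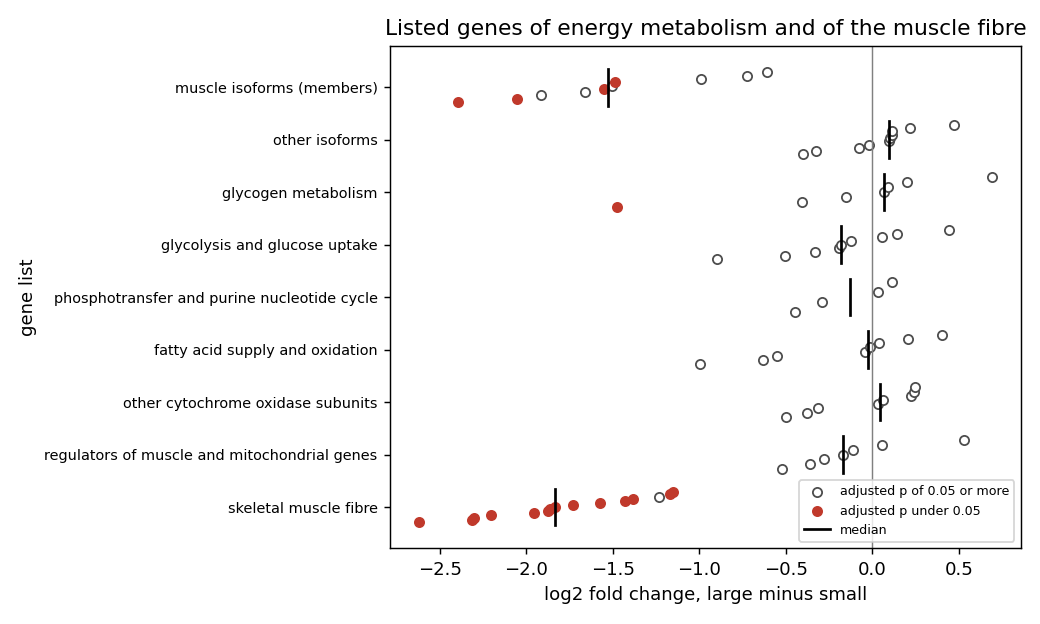
Log2 fold change (large minus small tumors) of every tested gene by list, with called genes filled in red and a black bar at the list median. The muscle isoforms and the muscle fibre markers lie to the left with medians of -1.53 and -1.83, and the other isoforms and the energy lists have medians between -0.18 and 0.10.

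The genes whose course over the 6 arrays was closest to the mean course of the 10 members were Tcea3, Hrc, Mylpf, Myl1 and Cmya5. Likeness was the root mean square difference between log2 profiles, each centred on its own mean, and was 0.0905, 0.0952, 0.0964, 0.114 and 0.117 log2 units. Their log2 fold changes were -1.35, -1.42, -1.57, -1.43 and -1.46, and values near those of the members follow from choosing genes by this likeness. On the same measure Cox6a2 and Cox8b, at 0.0943 and 0.109, were the members nearest to the mean course, and Ckm and Cox7a1, at 0.465 and 0.475, the farthest from it, Ckm with a larger and Cox7a1 with a smaller change. Each member is itself part of that mean course.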

How the data were processed

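Mean bead signal (intensity, linear scale, no background subtracted) and a detection p-value per probe were deposited for 6 Illumina bead arrays, per the file headers, and read with GenomeStudio, per the submitters' processing notes; its version is not given in the sources used here. A processed intensity table from the authors covers 20346 of 45281 probes and served as an alternative; its values are linear, and its normalization and any floor are unknown. Large tumors 1 to 3 had medians of 132.7, 130.8 and 128.5 there, small tumors 120, 130.2 and 131.6, and all shared a minimum of 28.82.

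Normalization used limma 3.58.1 (neqc, with background inferred from detection p-values, quantile normalization and an offset of 16) under R 4.3.3, and log2 levels are on this scale. Probes detected (p under 0.05) on at least 3 of 6 arrays were kept (19120). Symbols came from the platform annotation of the processed table's probes (17300 with 1 symbol, 11 with several). Entrez identifiers of 17278 matched a RefSeq table and changed 0 symbols. The brightest kept probe stood for each of 10523 genes. Levels of different probes are not compared. Groups were compared with lmFit and eBayes, and differences within an array by exact permutation. On simulated data of 10523 genes, 95% of changes of 2 log2 units and 75% of changes of 1 were recovered. Noise there was drawn independently for each gene and array, so these shares need not hold for the real arrays.

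The 10 members and all lists were chosen with earlier results of these data known. Text names all members and other isoforms, the 4 smallest p-values of each pathway list, the first 4 markers on the array per list and the 5 closest profiles. No arrays shared equal signals (highest share 0%). Alternatives covered background correction, offset, scaling, the processed table, detection filters, probe averaging, priors, array weights, a replicate block and each array left out.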

Additional observations from a re-analysis of the deposited data

How the results depend on the processing

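All 10 members stayed lower in large tumors in all 17 alternatives, and their median log2 fold change lay between -1.71 and -1.07. The 4 called members became 7 with detection on all 6 arrays and 8 with a trended and robust prior, and 0 to 5 with 1 array left out. Ckm was called in 14 of 17 alternatives (-2.56 to -2.10), Pgam2 in 13 (-2.25 to -1.59), Cox6a2 and Cox8b in 12 each, Ampd1 in 6, Mb in 5, Pygm in 3, Eno3 in 1 (trended and robust prior), and Ckmt2 and Cox7a1 in 0 (limma; adjusted p at least 0.0555 and 0.0921). Quantile normalization without background correction gave the median nearest to 0. Among other isoforms, 1 (Cox6a1) was called with that normalization, with the trended and robust prior and with array weights. Pathway genes called numbered 2 with quantile normalization without background correction, 3 with the trended and robust prior and 0 to 1 with 1 array left out, and fibre markers 0 to 12. Over all genes 260 were called (177 lower, 68.1%). The count was 404 with quantile normalization without background correction (55.7% lower), 407 with 75th percentile scaling (60.9%), 402 with detection on all 6 arrays (58%), 656 with the trended and robust prior (52.9%), 574 with array weights (55.4%), 109 with the replicate block (93.6%) and 0 to 300 with 1 array left out. With the replicate block 5 members were called, Mb added (adjusted p = 0.0314). Correlations between tumors were taken across genes after subtracting each gene's group mean, which by itself makes their signs mixed. For same-numbered tumors they were -0.554, -0.0674 and -0.453, so numbers were not taken as pairs. Those of differently numbered tumors ranged from -0.333 (large replicate 2 with small replicate 3) to 0.566 (large replicate 1 with small replicate 3). The source of this shared variation was not tested. Ckmt1, detected on 4 arrays, gives no value with detection on all 6.

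Some uncalled values changed sign, among them Ckmt1 (-0.40) and Ckmt2 minus Ckmt1 (-1.10), whose spread within groups exceeds the difference. With 1 array left out, Ckmt1 ranged from -1.61 to 0.601, Cox7a2 from -0.0976 to 0.0298, Ampd3 from -0.0178 to 0.292, Ckmt2 minus Ckmt1 from -1.90 to 0.0777, Mb relative to fibre markers from -0.0603 to 0.266, Ampd1 relative to them from -0.394 to 0.117, Cox6a2 minus Cox8b from -0.123 to 0.0328 and Ampd1 minus Mb from -0.481 to 0.0783. Quantile normalization without background correction gave 0.39 for Ampd1 relative to fibre markers, 0.25 for Pygm minus Eno3 and 0.28 for Ampd1 minus Mb, and offset 50 gave 0.15, 0.0494 and 0.0526. Cox7a2 was at 0.0662 with 75th percentile scaling and 0.0086 with the processed table, which put Cox6a2 minus Cox8b at 0.0388. The cause was not tested. Differences within an array do not use the fit and have no value under the prior, weights or block.

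The 3 arrays per group limit precision, and the smallest exact permutation p was 0.1. The log2 fold changes of Ckmt2, Pygm and Ampd1, -1.50, -0.99 and -1.92, were -0.71, -0.41 and -1.09 without background correction and -1.05, -0.65 and -1.49 with offset 50.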

Other observations

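Ckmt1, the ubiquitous mitochondrial creatine kinase, varied more within groups than the other isoforms. Its log2 levels were 8.80, 5.97 and 4.37 in large replicates 1 to 3 and 4.69, 7.77 and 7.89 in small replicates 1 to 3. The summed linear level of 8 keratinocyte markers on the same arrays was 57239, 10979 and 700.4, then 474, 32098 and 44502. Both were lowest in large replicate 3 and small replicate 1. The part of these markers in the Ckmt1 values was not tested, and the pattern was noticed after the values were seen.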
